A study of Mus musculus with 19 samples.

Results

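Astrocytes clear glutamate and potassium from around synapses, pass ions and metabolites to one another through gap junctions, move water at their endfeet, and supply neurons with glutamine and fuel. The 9 genes described here serve that upkeep: the glutamate transporter genes Slc1a2 and Slc1a3, the glutamine synthetase gene Glul, the gap junction gene Gja1, the water channel gene Aqp4, the enzyme genes Aldh1l1 and Aldoc, the angiotensinogen gene Agt and the calcium-binding protein gene S100b. They were taken by symbol from a list drawn up with earlier results of these data known, and all 9 were found among the 14459 genes of the deposited tables.

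The samples were acute hippocampal slices from male Fmr1 KO mice and their WT male littermates, aged 28 to 35 days, on a C57BL/6 background after more than 10 generations of backcrossing. FMRP, the Fmr1 product, binds RNA and is missing in fragile X syndrome, and the KO allele acts in every cell and not in astrocytes alone. Slices of 400 µm (8 to 10 from 6 to 8 mice for each replicate) recovered at 30 °C for 3 to 4 h and received cycloheximide at 100 µg/ml in both genotypes. One lysate gave cytoplasmic RNA for RNA-seq and ribosome-protected fragments (footprints, RPF). The protocol describes cutting away CA3, whereas the source name reads hippocampal-cortical. The tables held 3 KO and 4 WT libraries for each assay, so n is 3 for KO and 4 for WT throughout. The labels list 19 samples, and the other 5 are not analysed here.

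Library totals ran from 4.97 to 9.96 M estimated counts in RNA and from 15.57 to 22.71 M in footprints. Fmr1, the targeted gene, had 4.59 to 5.03 footprint TPM in KO libraries and 42.7 to 46.3 TPM in WT libraries, and no library went against its label. TPM, a measure of transcript abundance, is scaled to length and library size, so levels can be set side by side between genes and libraries. No value of these tables lies far below 1 TPM, and every one of the 9 genes lies well above that floor. The smallest count behind any of their values was 54, for S100b RNA in a WT library. Scaling places the typical gene near 0, with a median log2 fold change of -0.0001 in footprints and -0.0049 in RNA, so a change shared by all genes is not visible. The slices are mixed tissue: markers of neurons, oligodendrocytes, microglia and vessels were all measured beside those of astrocytes. In such bulk samples, fewer astrocytes and less RNA per astrocyte cannot be told apart.

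Footprints of 6 of the 9 genes differed between genotypes, in both directions. Aldh1l1, Glul and Aldoc rose in KO slices by 10.1% to 17.5%. Slc1a3 fell by 11.6%, Gja1 fell by 17.7% and Agt fell by 20.9%. Slc1a2, Aqp4 and S100b did not pass the test. A gene was called at an adjusted p under 0.05 in edgeR's quasi-likelihood test, adjusted over all genes, and that rule called 18.5% of the 14438 genes tested (8.15% higher and 10.4% lower in KO). Taken without sign, the median log2 fold change was 0.152 for the 9 genes, against 0.087 over all genes. The 9 genes were chosen with earlier results of these data known, so this comparison cannot show that they differ from other genes. In RNA, none of the 9 genes passed, where edgeR called 2.11% of all genes higher and 2.77% lower.

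The promoters of the 6 genes that passed are shown here because 3 of those genes rose and 3 fell. The sequences are the 100 bases upstream of the transcription start in RefSeq, build GRCm38.p6, read 5′ to 3′ on the gene's strand. Capitals mark TATAAA, the core of a TATA box, or CCAAT, searched on both strands and so written ATTGG where it lies on the other strand; the motifs do not overlap in these windows. The 3 genes that fell come first. Agt lies at chr8:124569707-124569806 on the minus strand, Gja1 at chr10:56377200-56377299 on the plus strand and Slc1a3 at chr15:8710808-8710907 on the minus strand.
Agt: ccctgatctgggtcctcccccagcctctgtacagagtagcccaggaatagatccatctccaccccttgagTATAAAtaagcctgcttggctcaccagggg
Gja1: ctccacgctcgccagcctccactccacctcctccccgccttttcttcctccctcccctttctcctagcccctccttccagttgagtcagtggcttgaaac
Slc1a3: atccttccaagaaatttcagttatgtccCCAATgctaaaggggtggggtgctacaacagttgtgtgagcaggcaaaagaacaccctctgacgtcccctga

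Among the genes that rose, Aldh1l1 lies at chr6:90550693-90550792, Glul at chr1:153899829-153899928 and Aldoc at chr11:78322973-78323072, all on the plus strand. Aldoc has 2 listed starts, of which the first was used. The promoter table's start of Aldh1l1, from which its window is counted, lies within the annotated gene span given below, so the last bases of that window fall inside the span.
Aldh1l1: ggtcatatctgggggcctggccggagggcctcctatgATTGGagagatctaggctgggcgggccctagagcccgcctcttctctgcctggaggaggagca
Glul: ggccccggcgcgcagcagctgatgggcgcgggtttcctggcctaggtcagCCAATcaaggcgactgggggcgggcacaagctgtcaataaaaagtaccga
Aldoc: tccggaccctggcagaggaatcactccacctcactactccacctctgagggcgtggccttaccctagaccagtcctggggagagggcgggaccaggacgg

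Agt alone of the 6 held TATAAA, beginning 30 bases before its start, and 5.56% of the 32851 promoter windows of the same length hold it. CCAAT was present in Slc1a3 among the genes that fell and in Aldh1l1 and Glul among those that rose, beginning 72, 63 and 50 bases before the start, and 18.9% of all windows hold it. Neither motif occurs in the Gja1 and Aldoc windows. CpG pairs numbered 0 in Agt, 3 in Gja1 and 1 in Slc1a3, and 3 in Aldh1l1, 8 in Glul and 4 in Aldoc. These matches describe the letters of the windows only.

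**Figure D1:**
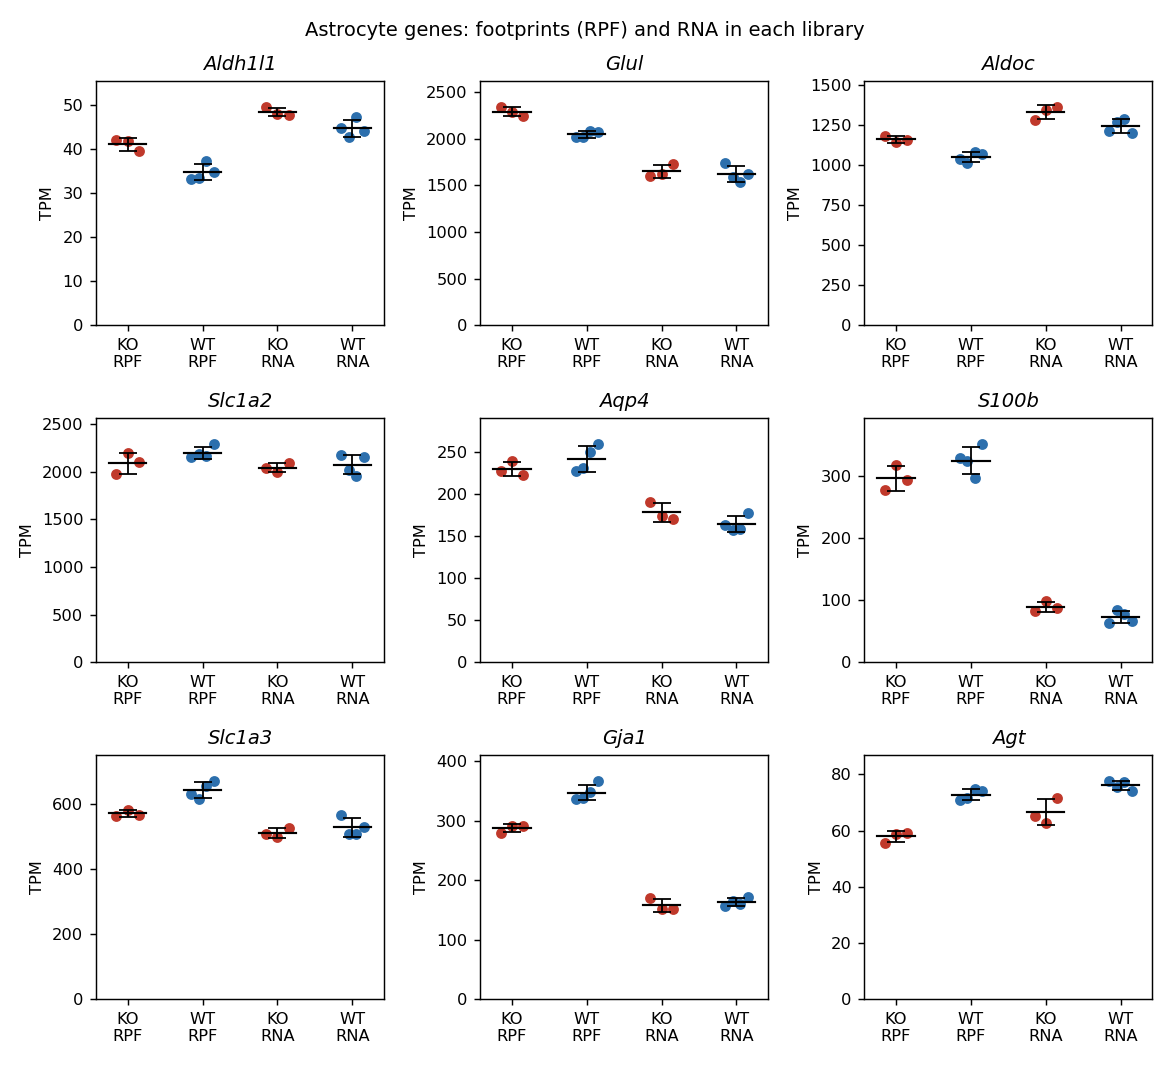
Footprint (RPF) and RNA levels of the 9 genes in TPM, with a point for each library (red KO, blue WT), a long bar at the mean and whiskers of 1 SD. The top row holds the genes whose footprints rose in KO, with no overlap of the KO and WT footprint points, and the bottom row those whose footprints fell, again with no overlap.

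Slc1a2 encodes GLT-1, the transporter that takes up most glutamate in the adult forebrain, and its gene spans chromosome 2, 102658239 to 102790784 (GRCm38). Its footprints were 1975, 2190 and 2096 TPM in the KO libraries, against 2151, 2185, 2163 and 2286 TPM in the WT libraries. The groups overlapped, because the KO library of replicate 2 lay above 3 of the WT libraries. The footprint log2 fold change was -0.08 ± 0.05 (SE, adjusted p = 0.271). Slc1a2 RNA averaged 2041 ± 47.9 TPM in KO and 2073 ± 103 TPM in WT (mean ± SD), a log2 fold change of -0.02 ± 0.05 (adjusted p = 0.86).

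Slc1a3 encodes GLAST, the other main glutamate transporter of astrocytes and of radial glia (chromosome 15, 8634124 to 8710807). Its footprints were 564, 582 and 566 TPM in KO libraries, against 631, 615, 653 and 669 TPM in WT libraries. All 3 KO libraries lay below all 4 WT libraries. The log2 fold change was -0.18 ± 0.04 (adjusted p = 0.00742), and the level fell by 11.6%. RNA of Slc1a3 averaged 511 ± 14.3 TPM in KO and 528 ± 28.1 TPM in WT, and the groups overlapped (log2 fold change -0.05 ± 0.05, adjusted p = 0.674).

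Glul encodes glutamine synthetase, which turns the glutamate taken up into glutamine (chromosome 1, 153899929 to 153909723). Glul footprints were 2339, 2286 and 2245 TPM in KO libraries, against 2020, 2017, 2087 and 2077 TPM in WT libraries. Every KO library was above every WT library, and the log2 fold change was 0.15 ± 0.03 (adjusted p = 0.00832). Glul RNA averaged 1649 ± 67.3 TPM in KO and 1619 ± 85.2 TPM in WT, with overlap (log2 fold change 0.03 ± 0.05, adjusted p = 0.855). Footprints of the uptake gene Slc1a3 thus fell while those of the synthesis gene Glul rose.

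Other genes of transmitter uptake and the glutamine cycle were also split in footprints. Of 11 measured, 2 rose and 4 fell (54.5% called, beside 18.5% of all genes), with a median log2 fold change of -0.136. The rises were in enzymes of glutamate and GABA breakdown: Abat, the GABA transaminase gene, had a log2 fold change of 0.15 ± 0.03 (adjusted p = 0.00651), and Glud1, the glutamate dehydrogenase gene, one of 0.18 ± 0.04 (adjusted p = 0.0125). The falls were in transporter genes. The amino acid transporter genes Slc38a2 and Slc38a1 fell by 0.15 and 0.16 in log2 units (adjusted p = 0.0109 and 0.0111), the glycine transporter gene Slc6a9 by 0.24 (adjusted p = 0.0278) and the glutamate transporter gene Slc1a1 by 0.16 (adjusted p = 0.0292). In RNA, 1 of the 11 passed, Glud1, with a log2 fold change of 0.20 (adjusted p = 0.0401), where the rule called 4.89% of the 13877 genes tested.

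Gja1 encodes connexin 43, the main gap junction protein of astrocytes (chromosome 10, 56377300 to 56390419). Its footprints were 280, 292 and 291 TPM in KO libraries, against 337, 339, 348 and 366 TPM in WT libraries. The highest KO library was below the lowest WT library, and the log2 fold change was -0.28 ± 0.04 (adjusted p = 0.00132), and the level fell by 17.7%. Only 3.4% of all tested genes had a lower footprint fold change. RNA of Gja1 was 171, 152 and 152 TPM in KO libraries, against 157, 166, 161 and 171 TPM in WT libraries, with overlap (log2 fold change -0.05 ± 0.06, adjusted p = 0.657).

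Aqp4 encodes the water channel of astrocyte endfeet and lies on chromosome 18. Its footprints were 227, 239 and 223 TPM in KO libraries, against 227, 231, 250 and 259 TPM in WT libraries. The groups overlapped, and the log2 fold change was -0.08 ± 0.05 (adjusted p = 0.265). In RNA the KO mean was the higher one, 178 ± 11.4 TPM in KO and 164 ± 9.46 TPM in WT (log2 fold change 0.11 ± 0.06, adjusted p = 0.292).

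Of 15 other genes of potassium, water and gap junction handling, 2 rose and 3 fell in footprints, with a median log2 fold change of -0.081. Together they are 33.3% of the list, beside 18.5% called over all genes. Dag1, Hepacam and Mlc1, which encode membrane proteins of astrocyte endfeet and contacts, fell by 0.18, 0.21 and 0.22 in log2 units (adjusted p = 0.00447, 0.00448 and 0.00982). Dtna encodes dystrobrevin alpha, a cytoplasmic protein of the complex that anchors the water channel at the endfoot. It rose by 0.15 in log2 units (adjusted p = 0.0133). The potassium channel gene Kcnj10 had a log2 fold change of -0.08 (adjusted p = 0.4), and Gjb6, the gene of connexin 30, one of -0.11 (adjusted p = 0.149). In RNA 1 of the 15 passed, the sodium pump subunit gene Atp1b2 with -0.24 (adjusted p = 0.0194), or 6.67% beside 4.89% of all genes.

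Aldh1l1 encodes a cytosolic enzyme of folate metabolism and is widely used as a marker of all astrocytes (chromosome 6, 90550768 to 90599171). Its footprints were 42.0, 41.8 and 39.4 TPM in KO libraries, against 33.2, 33.5, 37.3 and 34.8 TPM in WT libraries. All KO libraries were above all WT libraries, and the log2 fold change was 0.23 ± 0.04 (adjusted p = 0.00392), a rise of 17.5% that exceeded the footprint fold change of 97.2% of all genes. Aldh1l1 RNA was 49.4, 47.8 and 47.7 TPM in KO libraries, against 44.7, 42.7, 47.2 and 44.0 TPM in WT libraries. These RNA groups did not overlap either, but by a small gap, and the test was not passed (log2 fold change 0.11 ± 0.06, adjusted p = 0.286).

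Of 14 other genes of folate one-carbon and serine metabolism, 3 rose and none fell in footprints in the edgeR test, with a median log2 fold change of 0.079. The called share, 21.4%, was near the 18.5% called over all genes. Cbs, the cystathionine beta-synthase gene, had 29.4 TPM in KO and 22.4 TPM in WT on average, a log2 fold change of 0.38 ± 0.04 (adjusted p = 0.000351). Mthfd1, which interconverts folate forms, rose by 0.22 (adjusted p = 0.0149), and Psat1, of serine synthesis, by 0.14 (adjusted p = 0.03). Cbs was also the gene of the list that passed in RNA, with a log2 fold change of 0.34 (adjusted p = 0.0192). It made up 7.14% of the list, beside 4.89% called over all genes.

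Aldoc encodes the brain isoform of the glycolytic enzyme aldolase (chromosome 11, 78323073 to 78327781). Its footprints were 1182, 1141 and 1157 TPM in KO libraries, against 1035, 1010, 1080 and 1066 TPM in WT libraries. No KO library was as low as any WT library, and the log2 fold change was 0.14 ± 0.03 (adjusted p = 0.0133). Without KO replicate 3 the log2 fold change was 0.134 and the adjusted p 0.0543, which misses the threshold. RNA of Aldoc averaged 1328 ± 42.9 TPM in KO and 1242 ± 42.3 TPM in WT, with overlap (log2 fold change 0.09 ± 0.05, adjusted p = 0.347).

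Glycolysis and glycogen genes mostly moved upwards where they moved. Of 21 other such genes, 8 rose and 1 fell in footprints (42.9% called, beside 18.5% of all genes), with a median log2 fold change of 0.104. In RNA 5 rose with none lower in the edgeR test (23.8%, beside 4.89% of all genes). Ldha, the lactate dehydrogenase A gene, had a footprint log2 fold change of 0.22 ± 0.03 (adjusted p = 0.00188). The glyceraldehyde-3-phosphate dehydrogenase gene Gapdh had 0.17 (adjusted p = 0.00384) and the phosphoglycerate kinase gene Pgk1 had 0.14 (adjusted p = 0.0214). Ldha, Gapdh and Pgk1 have pseudogenes that can share their reads, so these values are uncertain. The member that fell was Slc16a1, which encodes the lactate transporter MCT1 of the plasma membrane (-0.18, adjusted p = 0.00521). Aldoa, the other widely expressed aldolase gene, had a log2 fold change of 0.10 (adjusted p = 0.0856).

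Agt encodes angiotensinogen, the secreted precursor of the angiotensin peptides, which in brain is made mainly by astrocytes (chromosome 8, 124556587 to 124569706). Agt footprints were 55.6, 59.0 and 59.3 TPM in KO libraries, against 70.9, 71.5, 74.9 and 73.9 TPM in WT libraries. The KO and WT groups were far apart compared with the spread inside each, and the log2 fold change was -0.34 ± 0.04 (adjusted p = 0.00058), and the level fell by 20.9%. Only 1.6% of all tested genes had a lower footprint fold change. Agt RNA was 65.2, 62.8 and 71.7 TPM in KO libraries, against 77.5, 75.6, 77.2 and 74.1 TPM in WT libraries. The RNA groups did not overlap, yet the log2 fold change of -0.19 ± 0.06 missed the threshold (adjusted p = 0.101). Without KO replicate 3, the highest of the KO libraries, the RNA log2 fold change was -0.251 and passed (adjusted p = 0.0271).

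Of 7 other measured genes of the angiotensin system, 4 fell and none rose in footprints in the edgeR test, with a median log2 fold change of -0.226. The share called was 57.1%, beside 18.5% of all genes. Mas1, which encodes a receptor for a shorter angiotensin peptide and is a neuronal gene in the hippocampus, fell by 0.37 in log2 units (adjusted p = 0.00126). Ace, of the converting enzyme, fell by 0.30 (adjusted p = 0.00201). Lnpep, of a membrane aminopeptidase, fell by 0.23 (adjusted p = 0.00233), and Atp6ap2, of the prorenin receptor, by 0.21 (adjusted p = 0.00367). Ace fell in RNA too, by 0.32. Agtrap fell in RNA by 0.86 but was not called in footprints (-0.29, adjusted p = 0.0878). The genes for renin and for the classical angiotensin receptors are not analysed here.

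S100b encodes a small calcium-binding protein that astrocytes hold in the cytosol and also release (chromosome 10, 76253836 to 76261319). Its footprints were 279, 319 and 294 TPM in KO libraries, against 329, 325, 297 and 352 TPM in WT libraries. The groups overlapped, and the log2 fold change was -0.14 ± 0.06 (adjusted p = 0.165). Without WT replicate 3, the lowest WT library, the log2 fold change was -0.188 and passed (adjusted p = 0.0438). S100b RNA was 82.0, 98.1 and 88.3 TPM in KO libraries, against 63.6, 83.6, 77.4 and 66.4 TPM in WT libraries. These RNA values leaned the other way from the footprints, with overlap and a log2 fold change of 0.30 ± 0.11 that did not pass (adjusted p = 0.126). They rest on 90, 120 and 154 counts in KO and on 54, 74, 92 and 70 counts in WT, the fewest of the 9 genes. The length of S100b implied by its counts and TPM is 0.163 times that of the median gene.

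**Figure D2:**
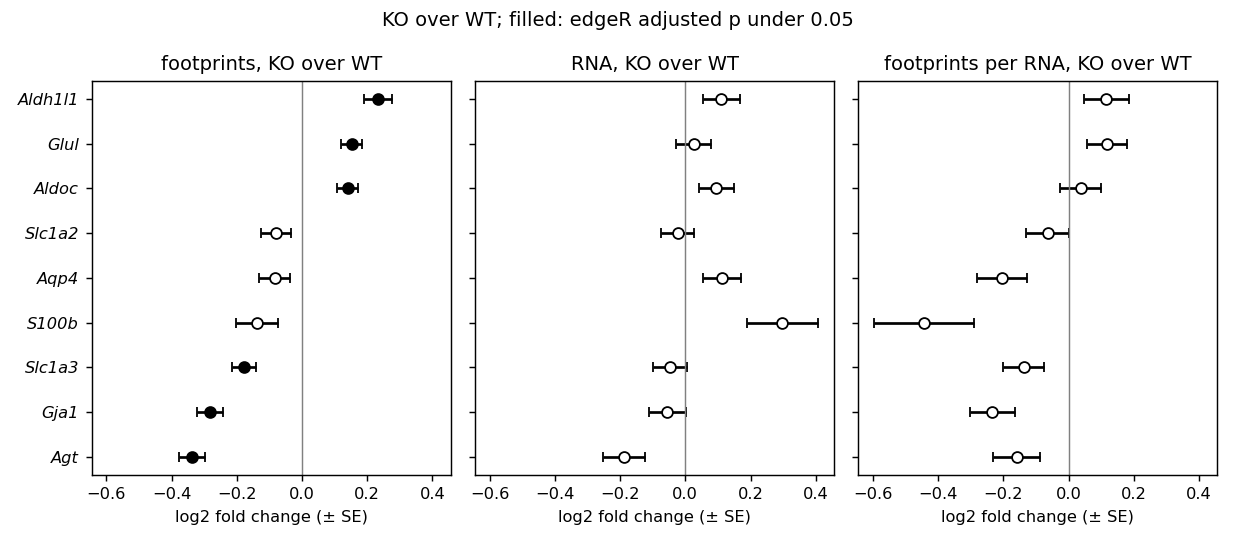
Log2 fold changes, KO over WT, of the 9 genes in footprints, RNA and footprints per RNA (points, with bars of 1 SE); filled points passed an adjusted p under 0.05. Aldh1l1, Glul and Aldoc are filled right of 0 and Slc1a3, Gja1 and Agt filled left of 0 in footprints, and no point is filled in RNA or in footprints per RNA.

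In RNA, edgeR called 0 of the 9 genes at the adjusted threshold, beside 4.89% of all genes. Limma also called 0 of the 9, and DESeq2 called 0 of the 8 for which it gave an adjusted p, which leaves out S100b. The SE of the 9 RNA fold changes was 0.05 to 0.11 on the log2 scale, against 0.03 to 0.06 in footprints, so RNA changes had to be larger to pass. At an unadjusted p under 0.05 there were 2, S100b and Agt, beside 20.5% of all genes. The groups did not overlap in RNA TPM for 2 genes, Aldh1l1 and Agt, where 19.1% of all genes have this property (9.03% with KO higher and 10% with KO lower). In footprints they did not overlap for 6 genes, the 6 that passed, beside 30.7% of all genes (15.1% with KO higher and 15.6% with KO lower). At an unadjusted p under 0.05 the footprints of the same 6 genes were counted, beside 31.3% of all genes. The median RNA log2 fold change of the 9 genes was 0.026.

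The ratio of footprint to RNA TPM in a lysate shows how many footprints a gene had for its RNA, often called translational efficiency. The interaction of assay and genotype over the 14 libraries called 0 of the 9 genes in edgeR, and DESeq2 and limma also called 0; in edgeR 0.0346% of 14435 genes passed, 0.0139% higher and 0.0208% lower in KO. At an unadjusted p under 0.05 there were 5 of the 9, Aqp4, Slc1a3, Gja1, S100b and Agt, all lower in KO, beside 10.8% of all genes. The median log2 difference was -0.138 for the 9 genes and -0.0115 for all genes. A difference between the footprint change and the RNA change was therefore not shown for any of them.

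The ratios of single lysates put the closest cases on view. Gja1 had 1.64, 1.92 and 1.92 footprint TPM per RNA TPM in KO lysates, against 2.15, 2.04, 2.16 and 2.14 in WT lysates, with no overlap and a log2 difference of -0.23 ± 0.07 (adjusted p = 0.158). S100b had 3.40, 3.25 and 3.33 in KO lysates, against 5.17, 3.88, 3.84 and 5.30 in WT lysates, also without overlap (-0.44 ± 0.15, adjusted p = 0.25). The WT lysates of S100b fell into a higher and a lower pair, and the KO lysates lay close together below both.

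Aqp4 had ratios of 1.19, 1.38 and 1.31 in KO lysates, against 1.40, 1.46, 1.58 and 1.46 in WT lysates (-0.20 ± 0.08, adjusted p = 0.31). Aldh1l1 had 0.849, 0.873 and 0.825 in KO lysates, against 0.743, 0.784, 0.790 and 0.792 in WT lysates (0.12 ± 0.07, adjusted p = 0.568). Both are without overlap, Aqp4 with the KO lysates lower and Aldh1l1 with them higher, and 13.6% of all genes have no overlap of this ratio (6.58% with KO higher and 7.01% with KO lower). For Slc1a2, Slc1a3, Glul, Aldoc and Agt the KO and WT ratios overlapped.

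**Figure D3:**
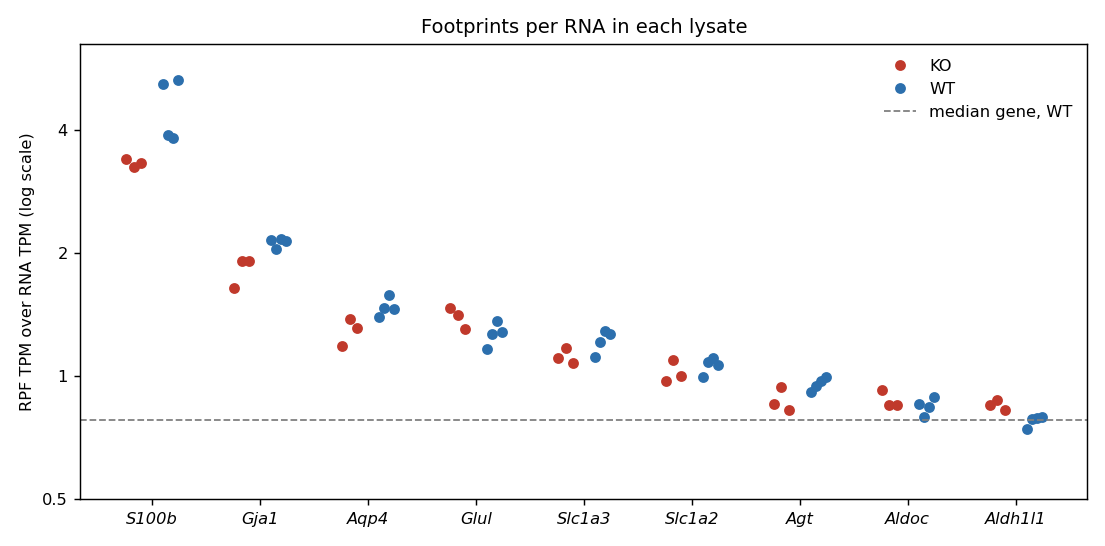
Footprint TPM over RNA TPM (log scale) for each of the 9 genes, with a point for each lysate (red KO, blue WT, KO left of WT) and a dashed line at the median gene in WT. S100b, Gja1 and Aqp4 have all KO lysates below all WT lysates, Aldh1l1 has them above, and the other 5 overlap.

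The 9 genes spanned a wide range of abundance. By mean RNA TPM among 14459 genes, Slc1a2 ranked 22 in KO and 22 in WT, Glul 42 and 44, and Aldoc 63 and 73. Slc1a3 ranked 323 in KO and 301 in WT, Aqp4 1138 and 1249, and Gja1 1310 and 1256. S100b ranked 2443 in KO and 3026 in WT, Agt 3284 and 2889, and Aldh1l1, the least abundant, 4350 and 4641. The order of RNA levels had 1 pair of neighbours that overlapped in KO, Aqp4 and Gja1, and in WT both that pair and the pair Agt and S100b.

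By footprint TPM, Glul ranked 36 and Slc1a2 44 in KO, whereas in WT Glul ranked 45 and Slc1a2 38. In KO every library had more Glul than Slc1a2 footprints (2245 to 2339 TPM against 1975 to 2190 TPM), and in WT every library had fewer (2017 to 2087 TPM against 2151 to 2286 TPM). Gja1 and S100b footprints overlapped with each other in both genotypes. Gja1 and S100b stood higher by footprints than by RNA: Gja1 ranked 696 in KO and 566 in WT, and S100b 671 and 611. So did Aqp4 (896 in KO and 841 in WT), Slc1a3 (283 and 239), Agt (3072 and 2538) and Aldh1l1 (4020 and 4497). The sum over the 9 genes was 6943 to 7150 footprint TPM in KO libraries and 6826 to 7182 TPM in WT libraries, so the ranges overlapped.

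The median gene had 0.783 footprint TPM per RNA TPM in KO and 0.78 in WT. All 9 genes were above it in KO, and in WT all but Aldh1l1 were. S100b lay at percentile 97.4 of all genes in KO and 98.6 in WT, and Gja1 at percentile 89.6 and 92.2. Glul lay at percentile 82.0 in KO and 78.4 in WT, and Aqp4 at percentile 79.4 and 83.5. Aldh1l1 was the lowest of the 9, at percentile 55.6 in KO and 49.8 in WT. By the length that counts and TPM imply, S100b is the shortest of the 9 and Aldh1l1 the longest, 1.97 times the median gene. Footprints cover coding sequence alone, and whether that length is of coding sequence or of the whole transcript is not given here. The order of these ratios among genes is therefore a description.

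Across the 14 libraries, log2 TPM of each gene was centred within each assay and set against that of the other genes. These correlations carry no test, because all points share the same libraries and the genotype difference is among what they share. Slc1a3 and Agt had r = 0.83, Slc1a2 and Slc1a3 0.78, Gja1 and Agt 0.77, and Aldh1l1 and Aldoc 0.84. The lowest values were -0.80 for Aldh1l1 and Agt, -0.79 for Gja1 and Glul, and -0.77 for Gja1 and Aldoc. Of the 4 pairs with high r, 3 joined genes called in the same direction in KO footprints and the other held Slc1a2, which was not called, while the 3 pairs with low r joined genes called in opposite directions.

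The genes most like each member over the 14 libraries lay outside the 9. For Agt they were Pcdhgc3 (r = 0.969), which shares exons with other genes of its cluster, Clu (0.960) and Plod3 (0.959), and for Gja1 Vstm2a (0.950), Tmem184c (0.948) and Mgst1 (0.944). For Slc1a3 they were Tmem47 (0.947), Lamb2 (0.926) and Chst8 (0.920). For Aldh1l1 they were Acap3 (0.966) and Tuba1a (0.958), for Aldoc Mdh2 (0.960), Psmb4 (0.950) and Arfgap2 (0.946), and for Glul Tigd5 (0.938), Clip3 (0.930) and Ctdp1 (0.926). The 3 genes not called had weaker or like neighbours: Asrgl1 (0.944) for S100b, Ttyh1 (0.879) for Slc1a2 and Wnt5b (0.875) for Aqp4.

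Further astrocyte genes moved mostly downwards in footprints where they moved. Of 30 identity and secreted genes of astrocytes, 14 fell and 1 rose (50% called, beside 18.5% of all genes), with a median log2 fold change of -0.147. Clu, which encodes the secreted chaperone clusterin, averaged 1767 TPM in KO and 2282 TPM in WT (-0.38 ± 0.05, adjusted p = 0.000706). Cst3, of the secreted protease inhibitor cystatin C, had -0.27 ± 0.04 (adjusted p = 0.00126), and Mfge8, of a secreted bridging protein for phagocytosis, -0.33 ± 0.05 (adjusted p = 0.00127). The gene that rose was Acsbg1, of an acyl-CoA synthetase inside the cell (0.17 ± 0.04, adjusted p = 0.014). The summed level of the 30 genes was 14828 to 15837 footprint TPM in KO libraries, against 17776 to 18162 TPM in WT libraries. Most of that difference lay in 4 abundant secreted genes, Cst3, Sparcl1, Apoe and Clu. Cst3 averaged 5251 TPM in KO and 6311 TPM in WT, Sparcl1 2489 and 2876 TPM, and Apoe 2207 and 2500 TPM. Which cells of the mixed slices the footprints of these 4 genes came from was not tested. The transcription factor genes of the list were not called in footprints, with log2 fold changes of 0.14 for Sox9 (adjusted p = 0.103), 0.14 for Rfx4 (0.225), 0.12 for Gli3 (0.28), -0.01 for Nfia (0.951) and -0.03 for Nfib (0.646). In RNA 4 of the 30 fell, among them Clu by 0.31 (adjusted p = 0.00641), and none rose in the edgeR test. That is 13.3% called, beside 4.89% of all genes in RNA. Of 20 genes of the reactive state, 6 fell and 1 rose in footprints (35% called, beside 18.5% of all genes). Serpina3n, of a secreted protease inhibitor, had a log2 fold change of -0.90 ± 0.07 (adjusted p = 9.94e-05), and C4b, of a complement component, one of -0.54 ± 0.05 (adjusted p = 0.000178). Both also fell in RNA, by 0.68 and 0.43, the 2 genes of 18 tested that passed there (11.1%, beside 4.89% of all genes). Neither Gfap (0.05 ± 0.03, adjusted p = 0.36) nor Vim (0.08, adjusted p = 0.488), intermediate filament genes raised in reactive astrocytes, passed in footprints.

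Markers of several other cell types also differed between the genotypes. Beside the counts below, edgeR called 8.15% of all genes higher and 10.4% lower in footprints. In RNA these shares were 2.11% and 2.77%. Of 15 microglia markers, 13 fell in footprints and 9 in RNA, and their summed footprints were 745.4 to 799.9 TPM in KO libraries, against 892.8 to 917.5 TPM in WT libraries. Of 7 meningeal fibroblast markers, 5 fell, with sums of 237.1 to 245.7 TPM in KO against 301.2 to 338.2 TPM in WT. Of 12 markers of mature oligodendrocytes, 7 fell and 1 rose in footprints and 1 rose in RNA (sums of 14259 to 14893 TPM in KO against 14634 to 16281 TPM in WT). Of 9 markers of oligodendrocyte precursors 3 fell, and of 13 of endothelium and pericytes 5 fell. Of 12 neuronal markers 1 rose, Tubb3, with sums of 17084 to 17714 TPM in KO against 17456 to 17732 TPM in WT. That share, 8.33%, is near the share of all genes. Of 10 markers of thalamic neurons 5 rose in footprints, with sums of 191.1 to 204.0 TPM in KO against 155.0 to 196.9 TPM in WT. In RNA 4 of these 10 rose, with sums of 199.5 to 213.9 TPM in KO against 142.8 to 186.6 TPM in WT. Of 10 markers of hippocampal neurons 4 fell and 1 rose in footprints, and 2 fell in RNA. RNA also fell for 4 of the 9 precursor markers and 2 of the 7 fibroblast markers. RNA rose for 1 of the 12 neuronal markers, and none of the 13 endothelial and pericyte markers was called in RNA. Of 7 measured markers of ependyma and choroid plexus, 1 rose and 1 fell in footprints (28.6% called, beside 18.5% of all genes). Ttr, the transthyretin gene of the choroid plexus, averaged 6.95 TPM in KO and 1.97 TPM in WT (log2 fold change 1.79 ± 0.37, adjusted p = 0.00756) and also rose in RNA (1.46 ± 0.20, adjusted p = 0.021); its WT level is near the floor, so its fold is uncertain. Kl, the klotho gene, had a footprint log2 fold change of -0.22 ± 0.07 (adjusted p = 0.0417). The tables hold no value of 0, so the absence of a marker cannot be read from them. The part of these cell types in the values of the 9 genes was not tested.

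**Figure D4:**
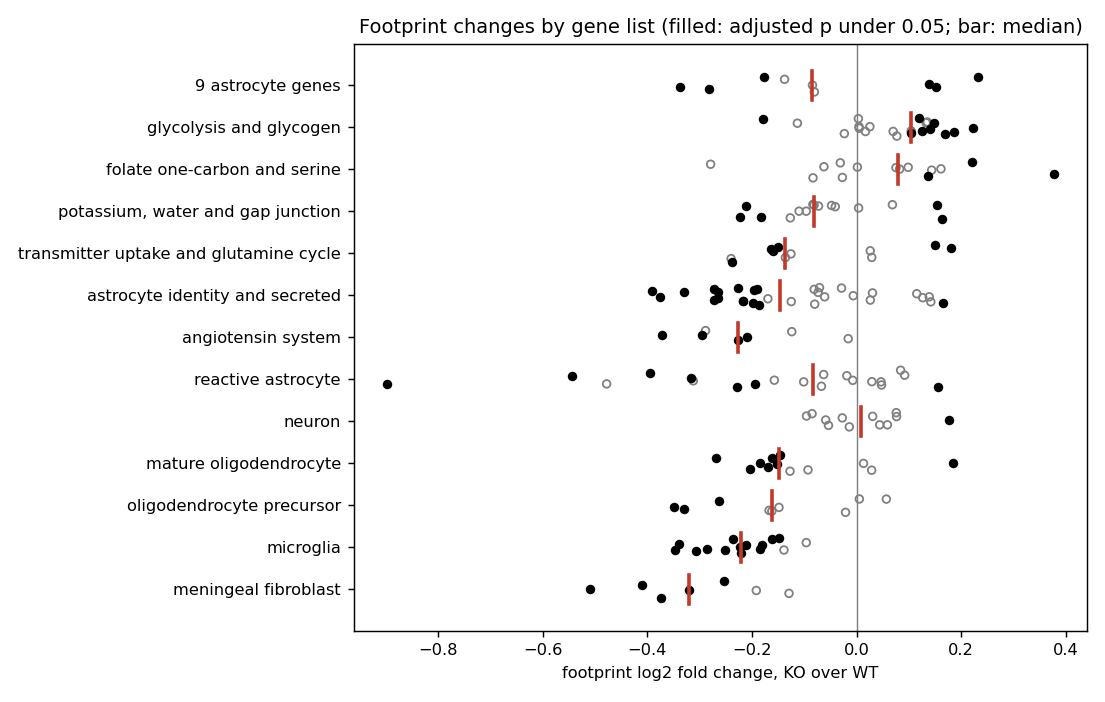
Footprint log2 fold changes, KO over WT, with a point for each gene of the 9 and of 12 other lists; filled points passed an adjusted p under 0.05 and the red bar is the list's median. The 9 genes lie on both sides of 0 (median -0.084), the glycolysis and glycogen genes mainly right of it (0.104), and the microglia (-0.221) and meningeal fibroblast (-0.321) markers left of it.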

How the data were processed

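The values deposited by the authors were estimated counts and TPM of 14459 genes, made with RSEM 1.2.11 against mm10. Cutadapt 1.7.1, Trimmomatic 0.32, Bowtie2 2.1.0, TopHat2 2.0.9 and SAMtools 0.0.19 are named in the submitters' processing notes, from which the RSEM version and build also come. How a floor near 1 TPM arose, and whether counting used strand, is not given in the sources used here; annotated noncoding transcripts overlap Aldh1l1, Slc1a2, Glul and Aqp4, and reads of these may be in their values.

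Estimated counts were rounded and fitted over all genes in edgeR 4.0.16 (R 4.3.3): TMM scaling, filterByExpr with a minimum count of 10, robust quasi-likelihood F-test and Benjamini-Hochberg adjustment at 0.05. Adjusted p-values without a named tool are edgeR's. Each assay was fitted alone, and footprints per RNA were the interaction of assay and genotype over 14 libraries. The SE of a log2 fold change is its size divided by the root of F. The fits were tested on simulated data. Alternatives used DESeq2 1.42.0, limma 3.58.1 on log2(TPM + 1), other scalings, no filter, a length trend removed, blocks, and each replicate left out. RNA and footprints of a number share a lysate, per the labels' protocols, and their deviations correlated by -0.046 to 0.174.

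Within groups, the direction of replicates 1 and 2 against 3 and 4 held 3.83% of the footprint variance and 2.27% of the RNA variance, against at least 18% for each other direction. No source used here says why. The deposited counts and TPM may already have been adjusted between libraries, which was not tested, and p-values may be too small.

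The 9 genes were all named, with up to 4 genes of smallest footprint p from each list, other list genes where the list is described, and the 3 genes most alike to each of the 9. Some genes that this rule names are not reported here. Members and lists were chosen with earlier results of these data known.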

Additional observations from a re-analysis of the deposited data

Results flagged for a closer look

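In WT lysates the ratio of footprint to RNA TPM of Aldh1l1 was 0.743 in replicate 1 and 0.784 to 0.792 in the other 3, and the gap to the nearest lysate was 0.838 of the whole WT range. This was the single value far from its group in 27 groups of 4 WT values (footprints, RNA and their ratio for each of the 9 genes), and such a gap comes up by chance in about 1 of 20 groups.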

How the results depend on the processing

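All 9 footprint fold changes kept their direction under the 16 alternatives, and the 6 calls held apart from Aldoc without KO replicate 3 (log2 fold change 0.134, adjusted p = 0.0543); S100b passed without WT replicate 3 (-0.188, adjusted p = 0.0438). Over all genes, footprint calls numbered 2677, and 1809 to 2335 with a replicate left out. The RNA calls numbered 678, but 412 with limma, 362 with replicates 1 and 2 against the others as a covariate, 1146 in a single fit over both assays, and 236 to 872 with a replicate left out. RNA calls of the 9 genes numbered 0 to 1 with a replicate left out, Agt being the 1, without KO replicate 3. Calls on footprints per RNA numbered 5, but 90 with DESeq2, 70 with limma, 22 with the length trend removed and 2 to 68 with a replicate left out, and none of these was among the 9 genes; the lysate as a block gave 5. Directions turned for Glul RNA without KO replicate 3 (-0.007 to 0.065 with a replicate left out), Slc1a2 RNA without WT replicate 1 (-0.042 to 0.003) and Aldoc footprints per RNA without KO replicate 1 (-0.002 to 0.067), none of them past the threshold. The cause of these shifts was not tested beyond the libraries left out.

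KO and WT libraries of the same number did not deviate together (r of -0.441 to 0.007 in footprints and -0.343 to -0.067 in RNA). Whether they share more than a number cannot be told, because an earlier adjustment between libraries would have removed a shared deviation. With that number as a replicate block, 1304 genes were called in footprints, 204 in RNA and 4 in footprints per RNA, and the 6 footprint calls among the 9 genes remained (adjusted p of 0.00904 for Agt to 0.0484 for Aldoc). S100b RNA, with 54 to 154 counts a library, limits what its RNA and ratio can show.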

Other observations

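A division of the genes by where their product acts was drawn after the values were seen, from general knowledge, and carries no test. Of the 9 genes, 5 encode membrane or secreted proteins (Slc1a2, Slc1a3, Gja1, Aqp4 and Agt), of which 3 fell and none rose in KO footprints in the edgeR test, with a median log2 fold change of -0.177. The other 4 encode proteins found inside the cell (Aldh1l1, Glul, Aldoc and S100b), of which 3 rose and none fell, with a median of 0.146. Over all genes 8.15% rose and 10.4% fell. S100b was placed inside the cell though its protein is also released. Its footprints leaned lower (-0.14, adjusted p = 0.165) and passed as lower without WT replicate 3 (-0.188, adjusted p = 0.0438).

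The other genes of the transmitter, potassium and water, astrocyte, folate, glycolysis and angiotensin lists were divided the same way. Of 65 tested for membrane or secreted proteins, 32 fell and none rose in KO footprints in the edgeR test, with a median log2 fold change of -0.179, where 10.4% of all genes fell. Of 53 for proteins inside the cell, 17 rose and none fell, with a median of 0.092, where 8.15% of all genes rose. In RNA, 8 of 63 fell and none rose for membrane or secreted proteins (median -0.092). Of those inside the cell, 7 of 53 rose and 1 fell in RNA (median 0.078). Over all genes 2.77% fell and 2.11% rose in RNA. The median length implied by counts and TPM was 1.02 and 1.14 times that of the median gene. With a trend on that length removed from each library, 34 fell and 17 rose. With the replicate number as a block, 22 fell and 8 rose. Both were added after seeing the data. These genes share libraries and cell types, and the footprint calls come from the same fit, so the counts are a description. The marker lists of other cell types were not divided this way. Some of their genes go with the division and some against it. Footprints of Ramp3, of a membrane protein, rose (log2 fold change 0.37, adjusted p = 0.0113). Those of Zbtb20, of a transcription factor, fell (-0.17, adjusted p = 0.0105).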
